A study of Mus musculus with 6 samples.

Results

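The genes described here are 10 components and targets of the Hippo pathway: the co-activators Yap1 and Wwtr1 (the gene of TAZ), the DNA-binding partners Tead1, Tead2, Tead3 and Tead4, and the target genes Amotl2, Lats2, Ankrd1 and Axl. They were chosen by symbol among the 22180 genes whose probe sets carried exactly 1 gene symbol, and all 10 were measured, none of them being set aside for a low level. Of their 11 probe sets only Yap1 had more than 1, and its brighter one was used. RNA came from cells of mouse gliomas, sorted with a magnetic anti-CD105 antibody (endoglin, the product of Eng) and then held in glioma-conditioned medium for 12 h. The labels call them tumor-associated endothelial cells. Each of 6 mice gave 1 Affymetrix Mouse 2.0 ST array. In the Tie2-Cre group (mice 1, 3 and 4) the genotype was Tie2-Cre,Pfn1fl/fl:Y129F, and in the no Cre group (mice 6, 7 and 10) it was Pfn1fl/fl:Y129F, so both groups carried the floxed Pfn1 alleles and the Y129F form of profilin-1, an actin-binding protein. Tie2-Cre expresses the recombinase from regulatory sequence of Tek, which is active in endothelial cells and also in some blood cells. The sources used here give neither how Cre acts on these alleles nor the ages of the mice. Per its title, the series is about profilin-1 phosphorylation and gene expression in glioma-associated endothelial cells.

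In the Hippo pathway the kinases MST1 and MST2 activate LATS1 and LATS2, which phosphorylate YAP and TAZ and keep them out of the nucleus. When YAP and TAZ are free, they enter the nucleus and bind TEAD proteins, which carry them to DNA. Actin filaments and cell tension raise YAP and TAZ activity, and in endothelial cells both are known for roles in vessel sprouting and barrier growth. Much of this control acts on the proteins, which an RNA array does not measure.

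TEAD proteins bind DNA letters of the form GGAATG, read as CATTCC on the other strand. Promoter windows of 300 bases (250 before and 50 after a gene's start, RefSeq, build GRCm38.p6) were available for 8 of the 10 genes, all but Tead1 and Tead4. At least 1 window held GGAATG or CATTCC in 7 of these 8 genes, against 15.4% of the 16990 tested genes with a window and 16.6% of all 27025 genes with one. Counted by window, it was 9 of 12, against 13.5% of the 20611 windows of tested genes. In a wider list of YAP and TAZ targets, described below and sharing genes with the 10, 7 of 14 genes with a window had a match (50%). Most of these 7 were already counted above, as Amotl2, Lats2, Ankrd1 and Axl are among the 10. Outside the 10, only Ccn1, Crim1 and Ptpn14 of that list had a match. The AP-1 letters TGANTCA, which read the same on both strands, were in 0 of the 8 genes and in 8.42% of the tested genes. These are matches of letters in short windows, and binding was not measured. The windows of the genes on which the results turn are shown 5′ to 3′ in the direction of the gene, with GGAATG or CATTCC in capitals. They are chr9:8004547-8004846 (minus strand) for Yap1, chr3:57575827-57576126 (minus) for Wwtr1, chr7:45215542-45215841 (plus) for Tead2, chr9:102717554-102717853 (plus) for Amotl2, chr14:57746074-57746373 (minus) for Lats2, chr19:36119795-36120094 (minus) for Ankrd1 and chr7:25788684-25788983 (minus) for Axl.
Yap1: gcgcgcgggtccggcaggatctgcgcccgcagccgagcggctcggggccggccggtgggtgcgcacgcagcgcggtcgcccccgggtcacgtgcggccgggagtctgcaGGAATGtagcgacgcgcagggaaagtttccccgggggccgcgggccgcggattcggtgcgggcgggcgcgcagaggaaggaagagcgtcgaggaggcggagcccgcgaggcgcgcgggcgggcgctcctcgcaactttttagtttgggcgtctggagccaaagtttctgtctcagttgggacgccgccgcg
Wwtr1: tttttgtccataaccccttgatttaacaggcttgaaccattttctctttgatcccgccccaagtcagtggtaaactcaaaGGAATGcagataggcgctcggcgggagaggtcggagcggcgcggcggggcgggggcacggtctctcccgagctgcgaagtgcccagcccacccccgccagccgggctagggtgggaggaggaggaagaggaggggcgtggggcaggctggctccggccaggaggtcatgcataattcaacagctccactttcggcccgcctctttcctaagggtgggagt
Tead2: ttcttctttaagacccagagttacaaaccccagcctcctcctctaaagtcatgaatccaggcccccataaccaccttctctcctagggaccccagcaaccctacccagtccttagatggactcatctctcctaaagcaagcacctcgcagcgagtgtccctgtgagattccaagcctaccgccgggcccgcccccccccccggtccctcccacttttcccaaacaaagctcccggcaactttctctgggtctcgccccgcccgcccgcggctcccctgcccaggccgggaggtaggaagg
Amotl2: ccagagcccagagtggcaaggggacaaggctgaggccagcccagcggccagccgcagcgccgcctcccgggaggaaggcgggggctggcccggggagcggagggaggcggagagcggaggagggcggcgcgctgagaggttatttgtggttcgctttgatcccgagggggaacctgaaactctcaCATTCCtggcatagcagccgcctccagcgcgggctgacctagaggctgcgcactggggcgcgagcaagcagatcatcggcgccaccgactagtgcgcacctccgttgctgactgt
Lats2: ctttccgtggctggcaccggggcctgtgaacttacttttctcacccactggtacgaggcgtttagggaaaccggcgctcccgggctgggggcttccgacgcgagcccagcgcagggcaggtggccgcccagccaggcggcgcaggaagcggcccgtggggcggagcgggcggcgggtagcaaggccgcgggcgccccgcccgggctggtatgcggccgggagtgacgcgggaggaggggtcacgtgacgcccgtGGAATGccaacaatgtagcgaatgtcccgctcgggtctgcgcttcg
Ankrd1: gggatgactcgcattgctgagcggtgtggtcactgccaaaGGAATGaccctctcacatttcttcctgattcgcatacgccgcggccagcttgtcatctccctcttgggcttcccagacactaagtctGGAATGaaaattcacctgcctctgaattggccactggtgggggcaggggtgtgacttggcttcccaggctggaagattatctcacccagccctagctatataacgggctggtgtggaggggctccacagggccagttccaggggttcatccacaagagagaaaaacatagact
Axl: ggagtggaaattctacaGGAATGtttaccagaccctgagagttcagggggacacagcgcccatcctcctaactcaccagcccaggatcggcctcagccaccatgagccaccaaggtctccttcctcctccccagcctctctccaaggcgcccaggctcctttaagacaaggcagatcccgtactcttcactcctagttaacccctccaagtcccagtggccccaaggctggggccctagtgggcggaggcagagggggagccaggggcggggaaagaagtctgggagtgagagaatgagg
Ankrd1 held 2 matches, which began 210 and 123 bases before the start. The others with a match held 1 each, 141 bases before the start in Yap1, 170 in Wwtr1, 65 in Amotl2 and 233 in Axl, and at base 5 of the transcript in Lats2. Tead2 had none, and it was the only gene of the 8 with a window in which no match was found. Wwtr1 and Lats2 each had a second window that is not shown: that of Wwtr1 overlaps the one shown and holds the same match, 136 bases before its start, and that of Lats2, at another start, holds 0 matches. Tead3, which is not shown, had 3 windows, of which 1 held 3 matches, 1 held 1 match and 1 held 0.

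Between the groups, 2 of the 10 genes rose with Tie2-Cre (Tead2 and Amotl2), 1 fell (Wwtr1) and 7 did not pass an adjusted p under 0.05 in limma's test over all genes. In that test 12.0% of all 22180 genes passed, 4.78% as higher and 7.17% as lower. The arrays of the groups did not overlap in 5 of the 10 genes, against 31.0% of all genes. The 10 genes were bright, with a median level of 10.88 against 7.12 over all genes, and 0 of 10 lay below the latter. They were also chosen with earlier results of these data known, so these shares of all genes are not a like background. The median change was 0.14 log2 over the 10 genes and -0.0042 over all genes. The largest change, that of Wwtr1, amounted to 1.40-fold, and all 10 changes were below 0.5 log2 in size. The count of higher genes was 0 without no Cre mouse 6 and 1 without no Cre mouse 10 or any 1 of the Tie2-Cre mice, while Wwtr1 was called lower whichever mouse was left out.

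**Figure D1:**
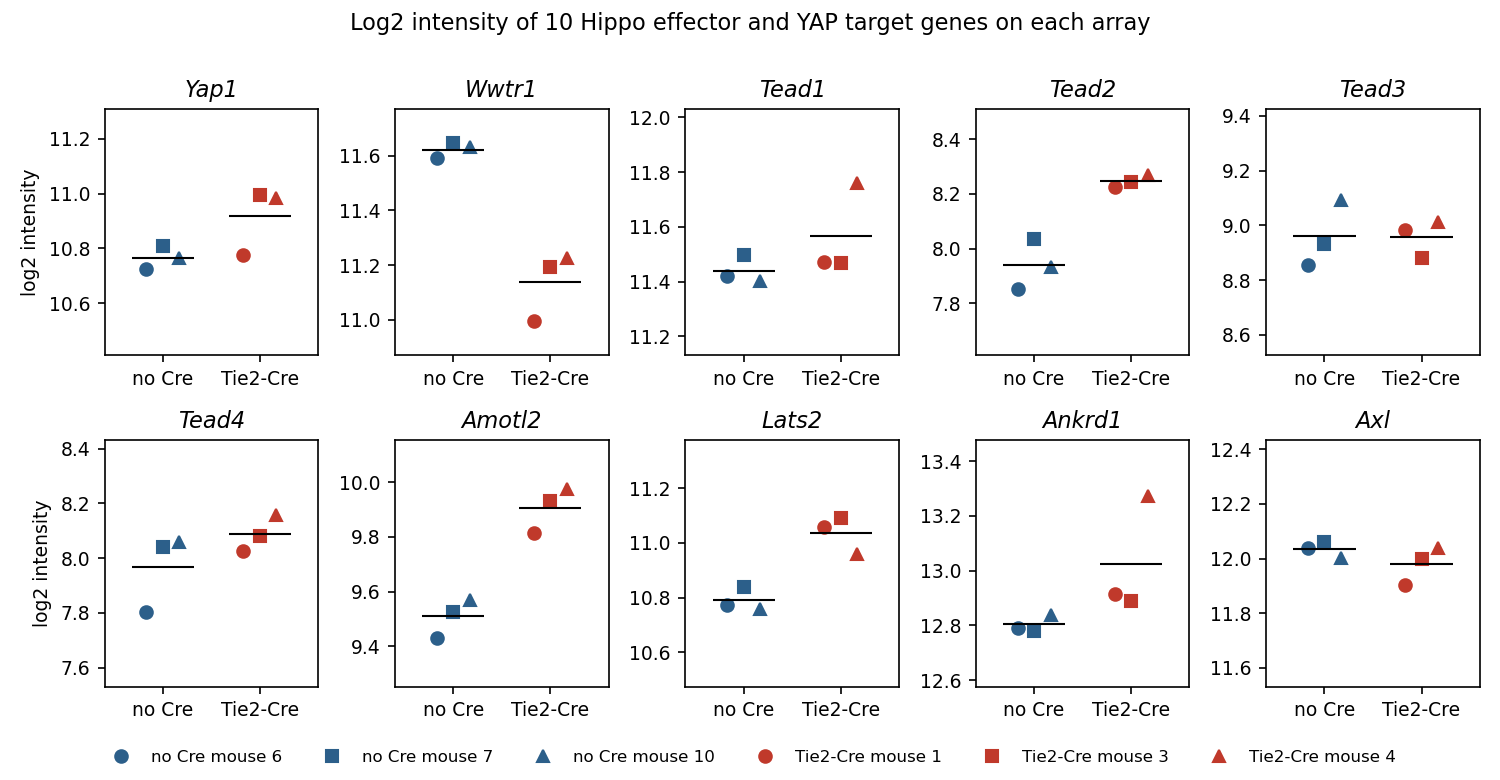
Log2 intensity (vertical axes, each spanning 0.9 log2 units) of the 10 genes on the 3 no Cre arrays and the 3 Tie2-Cre arrays, with a point per array and a line at the group mean. Wwtr1 is lower on all Tie2-Cre arrays, Tead2 and Amotl2 are higher on all of them, and Tie2-Cre mouse 4 stands above the other arrays in Tead1 and Ankrd1.

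The co-activators came first. Wwtr1 encodes TAZ, which like YAP has no DNA-binding domain of its own. Its log2 intensity was 10.99, 11.19 and 11.23 in Tie2-Cre mice 1, 3 and 4, and 11.59, 11.65 and 11.63 in no Cre mice 6, 7 and 10. All 3 Tie2-Cre arrays lay below all no Cre arrays, with mouse 1 the lowest. Wwtr1 fell by 0.48 log2 (SE 0.080, limma adjusted p 0.00684), from 11.62 ± 0.029 (SD, n = 3) without Cre to 11.14 ± 0.13 (SD, n = 3) with Tie2-Cre. It was past the threshold under all 14 alternative settings, with an adjusted p of 0.000293 to 0.0316.

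Yap1, the paralog of Wwtr1, did not fall with it. Its log2 intensity was 10.78, 10.99 and 10.98 in Tie2-Cre mice 1, 3 and 4 and 10.72, 10.81 and 10.77 in no Cre mice 6, 7 and 10. Mice 3 and 4 lay above every no Cre array and mouse 1 lay among them, so the groups overlapped. The change was 0.15 (SE 0.081, limma adjusted p 0.302), with a 95% confidence interval from -0.03 to 0.34. Without Tie2-Cre mouse 1 it was 0.22 and still not past the threshold (adjusted p 0.124). The second, dim probe set of Yap1 changed by -0.0089 (SE 0.10), and the mean of both by 0.07 (SE 0.084).

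Within each array, the log2 value of Yap1 minus that of Wwtr1 was steadier than either gene. It was -0.22, -0.20 and -0.24 in Tie2-Cre mice 1, 3 and 4, and -0.87, -0.84 and -0.87 in no Cre mice 6, 7 and 10. The group means were -0.22 ± 0.022 (SD, n = 3) and -0.86 ± 0.017 (SD, n = 3). The 0.64 log2 between them is many times the spread within either group. Probe sets differ in brightness, so the value in 1 group does not say which gene is more abundant, and only its shift between groups can be read. An exact permutation test, two-sided, gave p = 0.1, which is the lowest value possible with 3 arrays in each group (0.1 after Benjamini-Hochberg adjustment over 2 pairs, which were chosen after their values were seen). Tie2-Cre mouse 1 had the lowest value of both genes in its group.

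**Figure D2:**
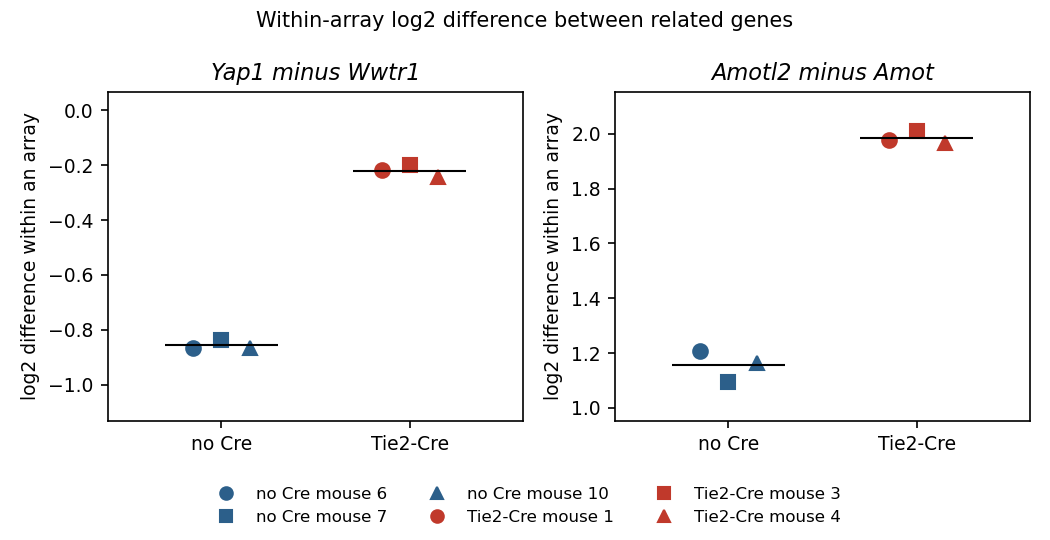
Difference of log2 intensity between 2 related genes on the same array (vertical axes) for Yap1 minus Wwtr1 and Amotl2 minus Amot, with a point per array and a line at the group mean. For the former pair, values run from -0.24 to -0.20 with Tie2-Cre and from -0.87 to -0.84 without Cre, and for the latter from 1.97 to 2.01 and from 1.10 to 1.21.

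The genes whose pattern over the 6 arrays was most like that of Wwtr1 were Pa2g4 (Pearson's r 0.999), Clpx (0.997) and Cct8 (0.997). For Yap1 they were C87436 (r 0.991), Elf1 (0.989) and Fam160b1 (0.989). These are descriptions over 6 arrays that fall into 2 groups, taken as the highest values among all genes, and carry no test.

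Of the TEAD transcription factors, Tead2 alone passed the threshold. Its log2 intensity was 8.23, 8.24 and 8.27 in Tie2-Cre mice 1, 3 and 4 and 7.85, 8.03 and 7.93 in no Cre mice 6, 7 and 10. The Tie2-Cre arrays were close together and all above the no Cre arrays. Tead2 rose by 0.31 (SE 0.072, limma adjusted p 0.0297). Leaving out any mouse but no Cre mouse 7 ended the call (adjusted p 0.0689 to 0.107), as did a test over all 41345 probe sets (0.0749). Tead1 read 11.47, 11.47 and 11.76 in Tie2-Cre mice 1, 3 and 4 and 11.42, 11.50 and 11.40 in no Cre mice 6, 7 and 10. Only mouse 4 lay above the no Cre arrays, and the change of 0.13 (SE 0.093, adjusted p 0.466, 95% confidence interval -0.09 to 0.34) became 0.03 without that mouse. Tead4 (0.12, SE 0.088, 95% confidence interval -0.08 to 0.32) and Tead3 (-0.0023, SE 0.083, 95% confidence interval -0.19 to 0.19) had overlapping groups as well. Without no Cre mouse 6, the lowest array, Tead4 was 0.04. The sign of the Tead3 value turned with the scaling of the arrays. Whether the change of Tead2 differs from that of the other TEAD genes was not tested, and cross-hybridization among these related genes was not examined.

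Among the targets, Amotl2 rose. It encodes an angiomotin-like protein of cell junctions that binds YAP and holds it in the cytoplasm, so it is both a product and an inhibitor of YAP activity. Its log2 intensity was 9.81, 9.93 and 9.97 in Tie2-Cre mice 1, 3 and 4 and 9.43, 9.53 and 9.57 in no Cre mice 6, 7 and 10, with no overlap. The change was 0.40 (SE 0.076, limma adjusted p 0.0128). It was lost without no Cre mouse 6 (0.36, adjusted p 0.0524), the lowest array.

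Lats2, the kinase gene that is likewise both a YAP target and a YAP inhibitor, lay close to the threshold. Its log2 intensity was 11.06, 11.09 and 10.96 in Tie2-Cre mice 1, 3 and 4 and 10.77, 10.84 and 10.76 in no Cre mice 6, 7 and 10. The groups did not overlap, and the change of 0.25 (SE 0.069) had a limma adjusted p of 0.0582 and a 95% confidence interval of 0.09 to 0.41. Which side of the threshold it fell on depended on the settings: it passed in 4 of 14 alternatives, with adjusted p values from 0.00784 to 0.160.

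Ankrd1, which encodes a nuclear ankyrin repeat protein and is a widely used readout of YAP activity, did not pass. It read 12.91, 12.89 and 13.27 in Tie2-Cre mice 1, 3 and 4 and 12.79, 12.78 and 12.84 in no Cre mice 6, 7 and 10. The groups did not overlap, yet mouse 4 set most of the difference: the change was 0.22 (SE 0.11, limma adjusted p 0.253, 95% confidence interval -0.03 to 0.47), and 0.10 (SE 0.071) without mouse 4. In its small family of muscle ankyrin repeat proteins, Ankrd2 changed by 0.04 (SE 0.075) and Ankrd23 by 0.17 (SE 0.12). None of the 3 passed in limma, and none did at an unadjusted p under 0.05 (0 of 3).

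Axl, a receptor tyrosine kinase, showed overlapping groups. It read 11.90, 12.00 and 12.04 in Tie2-Cre mice 1, 3 and 4 and 12.04, 12.06 and 12.00 in no Cre mice 6, 7 and 10. The change was -0.05 (SE 0.068, limma adjusted p 0.698), and the 95% confidence interval of -0.21 to 0.10 leaves room for a small shift either way. It was -0.02 without Tie2-Cre mouse 1 and -0.08 without Tie2-Cre mouse 4. Gas6, the ligand of Axl, rose by 0.26 (SE 0.063, adjusted p 0.0316), from 11.50 on average without Cre to 11.76 with Tie2-Cre, but the call was lost when any 1 mouse was left out (adjusted p 0.0570 to 0.100). The related receptors Mertk (-0.44, SE 0.15, adjusted p 0.121) and Tyro3 (-0.11, SE 0.080) and the ligand Pros1 (0.10, SE 0.12) did not pass. Mertk was -0.58 without Tie2-Cre mouse 4 (adjusted p 0.0474, past the threshold) and -0.24 without Tie2-Cre mouse 1 (adjusted p 0.149).

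**Figure D3:**
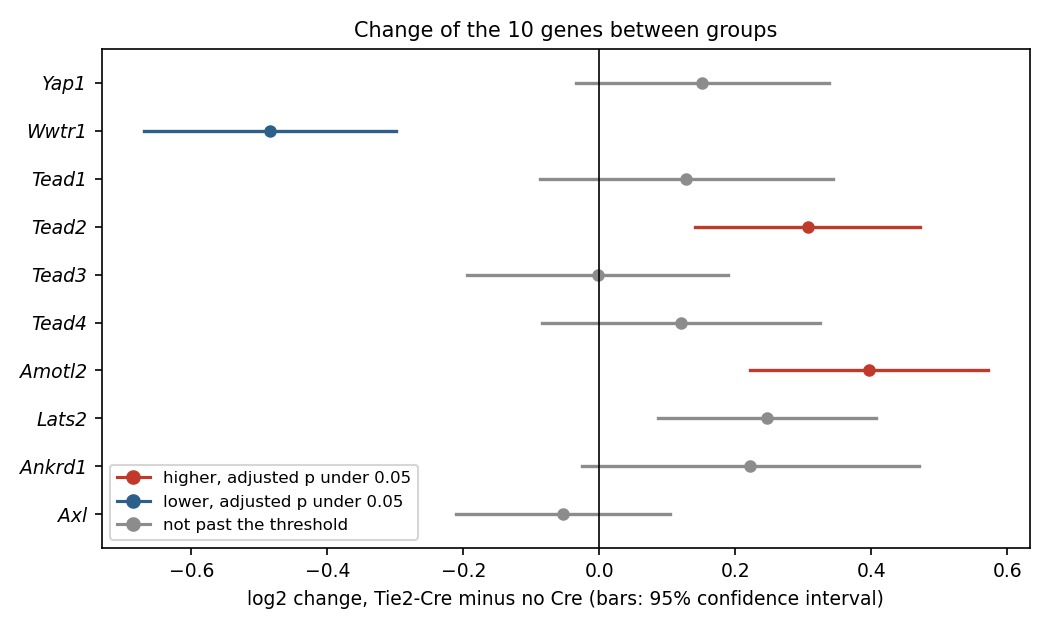
Log2 change of the 10 genes, Tie2-Cre minus no Cre (horizontal axis), with bars for the 95% confidence interval of the limma fit and colours for the call. Wwtr1 at -0.48 lies to the left of 0, Amotl2 at 0.40 and Tead2 at 0.31 to the right, and the remaining 7 did not pass the threshold.

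Spread within the groups was uneven. The SD was larger with Tie2-Cre than without Cre in 7 of the 10 genes, against 55.9% of all genes. It was 0.21 with Tie2-Cre and 0.032 without Cre for Ankrd1, and 0.17 and 0.050 for Tead1. Among the Tie2-Cre arrays, mouse 4 was the highest in 8 of the 10 genes, where it was the highest in 34.7% of all genes, and mouse 1 was the lowest in 6, where it was the lowest in 35.5% of all genes.

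Wider lists, chosen from knowledge of the pathway and with earlier results of these data known, place these values. A list of 22 genes known as YAP and TAZ targets, 4 of which (Amotl2, Lats2, Ankrd1 and Axl) are among the 10, had 21 measured members. Of these 6 were higher, 4 lower and 11 not past the threshold, or 47.6% past it against 12.0% of all genes. The listed genes were bright, with a median level of 11.06 against 7.12 over all genes, and 1 of 21 lay below the latter. For this reason, and because of how the list was chosen, the 12.0% is not a like background. The median change of the list was 0.15 and its mean -0.02, so they differ in sign. Leaving out the 4 shared genes, 5 of 17 were higher and 4 lower, with a median of 0.10. Without no Cre mouse 6, 3 of the 21 were called higher.

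The higher targets were Nuak2, a kinase of the AMPK family (0.70, SE 0.088, limma adjusted p 0.00199), the growth factor gene Tgfb2 (0.63, SE 0.13), the IGF-binding protein gene Igfbp3 (0.55, SE 0.069), the membrane repair gene Myof (0.46, SE 0.066), Amotl2 and Ccn1. Ccn1 encodes the matricellular protein CYR61, a prime YAP readout. It read 12.80, 12.76 and 12.87 in Tie2-Cre mice 1, 3 and 4 and 12.54, 12.51 and 12.52 in no Cre mice 6, 7 and 10, a rise of 0.29 (SE 0.065, adjusted p 0.0271). Leaving out any mouse but Tie2-Cre mouse 3 ended its call (adjusted p 0.0646 to 0.0910), and that of Tgfb2 ended in the absence of no Cre mouse 6 or 10 (0.0502 and 0.0655). Both calls were also lost when all probe sets were tested (0.0681 for Ccn1 and 0.0531 for Tgfb2). Ccn2, the gene of CTGF and the sister of Ccn1, named after its values were seen, changed by 0.05 (SE 0.066, adjusted p 0.737). With the mean of its probe sets in place of the brightest, its value was -0.09.

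The lower targets were Nt5e, Foxf2, Dock5 and F3. Nt5e, which encodes the ecto-nucleotidase CD73, read 6.90, 6.99 and 6.71 in Tie2-Cre mice 1, 3 and 4 and 9.57, 9.39 and 9.64 in no Cre mice 6, 7 and 10, a change of -2.66 (SE 0.099). The forkhead gene Foxf2 changed by -0.73 (SE 0.076, limma adjusted p 0.000846), the Rac activator Dock5 by -0.53 (SE 0.083) and tissue factor, F3, by -0.50 (SE 0.064). Foxf2 averaged 6.88 over the 6 arrays, below the median level of all genes (7.12), and no detection call was at hand. All 4 lower targets were past the threshold under every one of the 14 alternatives. The listed targets thus moved in both directions.

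**Figure D4:**
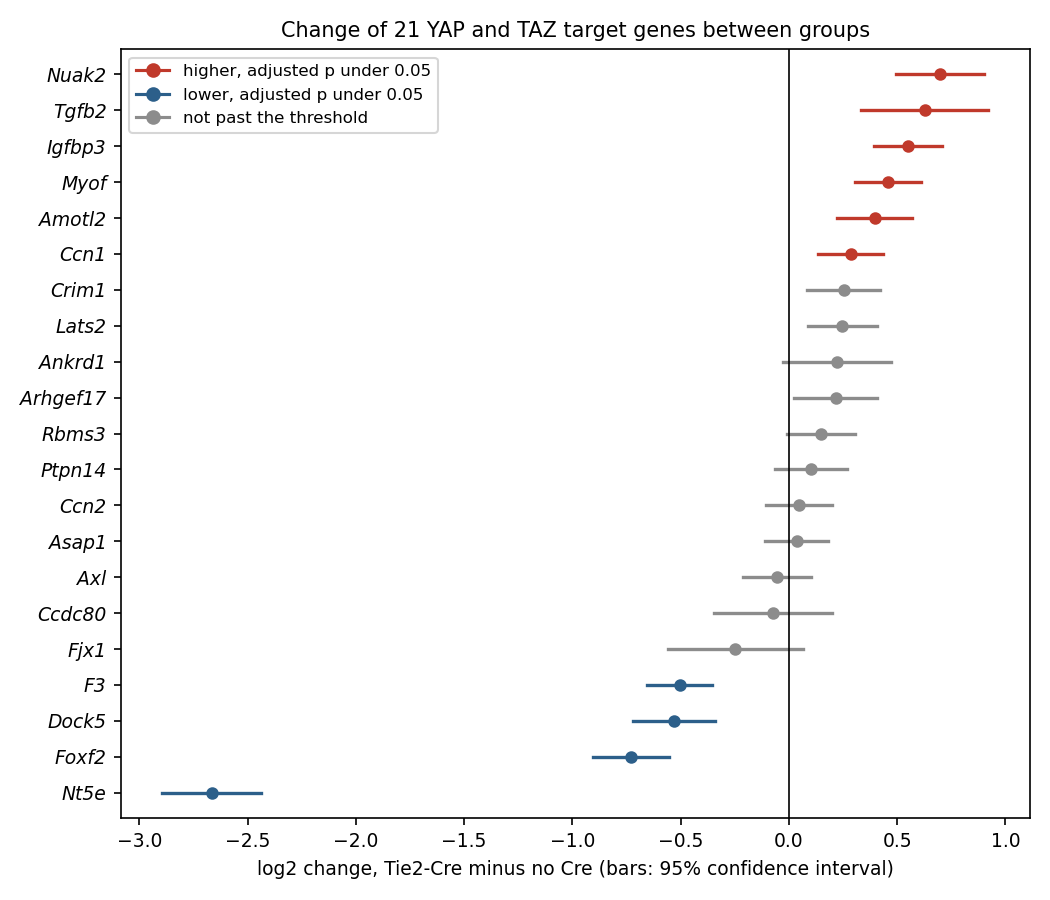
Log2 change of 21 YAP and TAZ target genes, Tie2-Cre minus no Cre (horizontal axis), with bars for the 95% confidence interval of the limma fit and colours for the call. They run from -2.66 for Nt5e to 0.70 for Nuak2, with 6 higher, 4 lower and 11 not past the threshold.

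The list of Hippo kinases, LATS included, and their regulators passed at about the rate of all genes. The list was brighter, with a median level of 9.36 against 7.12 over all genes, so the latter are not a like background. Of its 25 genes, 23 were measured, and 3 were higher, 0 lower and 20 not past the threshold (limma), or 13.0% past it against 12.0% of all genes, with a median change of 0.03. At an unadjusted p under 0.05, 5 were higher and 1 lower (26.1%, against 24.9% of all genes). The higher ones were the large cadherin Fat4 (0.94, SE 0.11, limma adjusted p 0.00142), the LIM protein gene Wtip (0.70, SE 0.098), whose family inhibits LATS, and Frmd6 (0.37, SE 0.065), a FERM protein that promotes Hippo signalling. Fat4 read 9.52, 9.62 and 9.42 in Tie2-Cre mice 1, 3 and 4 and 8.37, 8.60 and 8.77 in no Cre mice 6, 7 and 10. With the mean of its probe sets the change of Fat4 was 0.53 and still past the threshold. The kinase genes Stk4 (-0.09, SE 0.093) and Lats1 (-0.06, SE 0.064) and the scaffold Sav1 (-0.02, SE 0.069), named after their values were seen, did not pass. Stk3 and Taok1 were not analysed here.

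Among the 17 analysed partners that bind YAP, TAZ or TEAD, 13 stayed short of the threshold. Those past it were split evenly, with 2 up and 2 down in Tie2-Cre. The share past it was 23.5%, against 12.0% of all genes. Without Amotl2, which is among the 10, 1 of 16 was higher and 2 were lower. The listed genes had a median level of 9.71 against 7.12 over all genes, so the 12.0% is not a like background. Vgll4, which competes with YAP for TEAD, was higher by 0.52 (SE 0.072, limma adjusted p 0.00295), with 8.43, 8.45 and 8.50 in Tie2-Cre mice 1, 3 and 4 and 8.03, 7.93 and 7.86 in no Cre mice 6, 7 and 10. The tight junction gene Tjp1 changed by -0.45 (SE 0.069). Amot, the founding member of the angiomotin family, changed by -0.43 (SE 0.084, adjusted p 0.0140), opposite to Amotl2, while Amotl1 changed by 0.05 (SE 0.065). Leaving out no Cre mouse 7 or 10 ended the call of Amot (adjusted p 0.0572 and 0.0577).

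The difference between Amotl2 and Amot on the same array was 1.98, 2.01 and 1.97 in Tie2-Cre mice 1, 3 and 4 and 1.21, 1.10 and 1.16 in no Cre mice 6, 7 and 10. The groups differed by 0.83, with SDs of 0.021 and 0.056 (n = 3 each), and the exact permutation test, two-sided, again gave its smallest possible p of 0.1 (0.1 adjusted over the 2 pairs). The groups also differed in sex, as read from sex-linked genes (below). The part of sex in the change of Amot, and so in this shift, was not tested.

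Several features of the samples moved with the groups. Xist, which is expressed from the inactive X chromosome of females, changed by -5.59 (SE 0.17), and the Y-linked genes Uty, Eif2s3y and Kdm5d by 3.70 to 4.47. All Tie2-Cre arrays thus read as male and all no Cre arrays as female; genotype and sex cannot be told apart in any comparison given here. Eng, the gene of the CD105 antigen used for the sort, was 11.76, 11.79 and 11.72 in Tie2-Cre mice 1, 3 and 4 and 12.04, 12.09 and 12.03 in no Cre mice 6, 7 and 10, a change of -0.30 (SE 0.064, limma adjusted p 0.0217). Its call held without Tie2-Cre mouse 3, ended without any other mouse (adjusted p 0.0571 to 0.0827) and ended with all probe sets tested (0.0574). Of 12 endothelial markers, 0 passed in limma (1 at an unadjusted p under 0.05), and 11 lay below the median level of all genes (7.12). Their mean per array was 6.14 to 6.24 with Tie2-Cre and 6.19 to 6.25 without Cre, and no detection call was at hand. Of 10 pericyte and smooth muscle markers 6 were higher and 0 lower (mean per array 9.88 to 10.08 against 9.45 to 9.50), and of 8 fibroblast markers 3 were higher and 1 lower (10.29 to 10.45 against 10.04 to 10.05). Of 11 mesothelial and epithelial markers 3 were lower (6.79 to 6.94 against 7.23 to 7.36), of 10 macrophage and microglia markers 2 were lower (6.46 to 6.52 against 6.65 to 6.69), and of 9 glioma, astrocyte and neural markers 2 were higher (6.56 to 6.61 against 6.42 to 6.49). Over all genes 12.0% passed. The fibroblast median change was 0.0014 with 4 of 8 above 0, from Pdgfra (1.65), Lum (1.27) and Thy1 (0.87) to Dcn (-0.76). The mesothelial and epithelial median was -0.087 with 5 of 11 above 0, and the lower genes were Upk1b (-3.29), Upk3b (-1.36) and Krt19 (-0.42). The macrophage and microglia median was -0.079 with 1 of 10 above 0, and the lower genes were Cd68 (-0.99) and Csf1r (-0.42). The glioma, astrocyte and neural median was 0.025 with 5 of 9 above 0, and the higher genes were Nes (0.59) and S100b (0.57). In each of these lists a few genes thus set much of the mean. The part of the sort antigen and of these cell types in the changes of Wwtr1, Tead2, Amotl2 and the target genes was not tested, and in such bulk samples fewer cells of a type and less RNA per cell cannot be told apart. Pfn1 itself changed by 0.04 (SE 0.062, limma adjusted p 0.776). That value does not separate RNA of the floxed alleles from RNA of the Y129F form, so it does not show whether Cre acted on Pfn1.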

How the data were processed

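RNA of 6 mice, 3 with Tie2-Cre and 3 without Cre, was measured on 1 array each. Per the labels, the authors ran RMA (background correction, quantile normalization and a summary per probe set) in Affymetrix Expression Console and deposited linear intensities; its version, genome build and annotation are not given in the sources used here. No detection call came with them, so whether dim genes lay above background is not known. Precision is limited by the number of arrays.

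Log2 was taken and no further scaling applied. Of 41345 probe sets, 23521 had exactly 1 symbol, and the brightest per gene was kept, which left 22180 genes. Groups were compared with limma 3.58.1 in R 4.3.3 (lmFit, eBayes, two-sided), with Benjamini-Hochberg adjustment over all 22180 genes and a threshold of 0.05. Changes are log2 values with Tie2-Cre minus those without Cre. The labels name separate mice; their numbers differ between groups, so no pairing was used. On simulated data of 22180 genes the test recovered 23 of 67 changes of 0.5 log2, 60 of 67 of 1 and 66 of 66 of 2. Only those genes were given a change, far fewer than the 2652 called in the data. The adjusted threshold was therefore stricter in the simulation, and its shares do not give the power in these data. Alternatives were all probe sets, only genes with a mean log2 of at least 5, only the brighter genes (without the dimmest 33.3%), another quantile normalization, median centring, the mean of the probe sets, eBayes with trend and robust, array weights, and leaving out each mouse.

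The members and lists were chosen with earlier results of these data known. The text names all 10 members, every gene of the 3 pathway lists past the threshold (up to 8 in a direction), the receptor and ankyrin families in full, and the 3 genes most like Yap1 and Wwtr1.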

Additional observations from a re-analysis of the deposited data

How the results depend on the processing

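No paired analysis was possible because the mouse numbers differ between the groups. Of the 10 genes, Wwtr1 kept its direction and its call in all 14 alternatives, and Yap1, Tead1, Tead4, Ankrd1 and Axl kept their direction and stayed short of the threshold. Tead2 was 0.31 and not past it with all probe sets, and 0.26 to 0.35 when a mouse was left out. Amotl2 was 0.36 to 0.44 when a mouse was left out. Lats2 passed at 0.25 with a minimum mean log2 of 5, without the dimmest genes and with eBayes with trend and robust, and at 0.26 after another quantile normalization. Tead3 turned to 0.019 after another quantile normalization, to 0.00011 with centred arrays, to 0.04 without Tie2-Cre mouse 3 and to 0.064 without no Cre mouse 10, and lay between -0.054 and 0.064 when a mouse was left out, never past the threshold. Ccn2 turned to -0.090 with the mean of its probe sets, and Pros1 to -0.014 without Tie2-Cre mouse 1 (0.21 at most, without Tie2-Cre mouse 4). The count of higher genes among the 10 was 1 with all probe sets and 0 to 2 when a mouse was left out. Over all genes, leaving out a mouse gave 634 to 903 higher and 910 to 1253 lower genes. It gave 3 to 6 higher targets, and 1 to 2 higher and 1 to 2 lower binding partners. Upstream regulators numbered 5 higher and 1 lower with a minimum mean log2 of 5, without the dimmest genes and with eBayes with trend and robust, where Lats2 and Wwc1 (0.49) joined the higher genes and Mob1b (-0.22) was the lower one. The simulated test found 34.3% of changes of 0.5 log2. It had far fewer changed genes than the data, so this share does not carry over to them. All changes among the 10 genes were smaller, and such sizes were not simulated. Genes not past the threshold are not shown to be equal.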
